A study of Mus musculus with 12 samples.

Results

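Complex I (NADH:ubiquinone oxidoreductase) is the entry point of electrons into the mitochondrial respiratory chain, and transcripts of 34 nuclear genes named as its subunits were measured in mouse skeletal muscle. Ndufa4, counted among the 34 because of its symbol, has since been assigned to complex IV. The members were all genes whose symbol is Nduf followed by a, b, c, s or v and a number, found among the probe sets that carry only 1 gene symbol. They made up 34 of 18193 genes and 72 of 34945 such probe sets. Where a gene had several, the one of highest mean signal in the 12 arrays stood for it, and the other 38 served as a check. All 34 matched the reference gene table by their Entrez identifiers. Ndufs6, Ndufa11 and the subunits encoded in mitochondrial DNA were not analysed here. Muscle RNA of C57Bl/6 mice was hybridised as biotin-labelled cRNA to 12 Affymetrix arrays, 4 per group. One group had eaten a diet rich in fat, which gave 46% of its calories (HFD), for 5 days and another for 42 days, both started at 6 weeks of age. The third group stayed on chow, with 13% of calories as fat, and was the control for both. The series was set up to follow insulin resistance on this diet. The labels name neither the sex of the mice, the muscle taken, a batch, nor how old the chow mice were when sampled, so days on the diet and age cannot be told apart. They also do not say whether the 4 arrays of a group came from separate animals, and p-values measure only the spread between these arrays, which may be technical.

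Complex I oxidises NADH from the citric acid cycle and from fatty acid oxidation, passes the electrons through flavin mononucleotide and a chain of iron-sulfur clusters to ubiquinone, and pumps protons across the inner mitochondrial membrane. Its matrix arm holds the redox centres on conserved core subunits, its membrane arm holds the proton pumps, and accessory subunits around both are needed for assembly and stability. In muscle it serves the oxidative supply of ATP. Because the complex needs its subunits in fixed proportion, their transcripts are usually read together. Nuclear respiratory factor 1 (NRF1) and the ETS factor GABPA are known regulators of many respiratory chain genes.

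The windows just upstream of the members are shown because a shared regulation of these genes is commonly discussed from NRF1 and ETS motifs there. RefSeq promoters (GRCm38.p6) were found for 31 of 34 members, all but Ndufs1, Ndufa2 and Ndufb9, and the 250 bases before each start were searched on both strands. Among the genes whose results are given in most detail below, Ndufb5 (chr3:32736813-32737062, + strand) held no match to any motif searched, and Ndufb7 (chr8:83566508-83566757, + strand) held 1 CCGGAAG, the GABPA motif, in capitals.
Ndufb5: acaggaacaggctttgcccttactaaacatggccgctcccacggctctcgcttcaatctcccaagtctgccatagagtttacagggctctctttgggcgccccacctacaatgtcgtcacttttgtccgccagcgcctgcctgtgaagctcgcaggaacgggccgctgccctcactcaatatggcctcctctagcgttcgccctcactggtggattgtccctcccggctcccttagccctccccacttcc
Ndufb7: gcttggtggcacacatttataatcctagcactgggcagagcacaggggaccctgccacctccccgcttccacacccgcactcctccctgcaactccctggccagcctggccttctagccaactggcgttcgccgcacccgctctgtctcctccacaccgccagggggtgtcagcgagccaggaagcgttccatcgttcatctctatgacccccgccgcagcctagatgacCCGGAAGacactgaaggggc
The NRF1 motif searched was GCGC, then any 2 bases, then GCGC, which reads the same on both strands. It stood in 5 of 31 member windows (16.1%) and in 1380 of 27025 windows of all genes (5.11%). Those 5 were Ndufa8 and Ndufs5 of the proximal membrane arm, Ndufa5 of the matrix arm, Ndufb4 of the distal membrane arm and the core subunit Ndufv2, each shown with 8 bases on either side, or up to the start where it is nearer (Ndufv2), and the motif in capitals.
Ndufa8: agagcagtGCGCTTGCGCgtcgctgg
Ndufs5: tgcttgctGCGCAGGCGCagacccgc
Ndufa5: tgtgagctGCGCAGGCGCaaatctac
Ndufb4: ttgtgcgcGCGCAGGCGCacttcctg
Ndufv2: gctcgtgaGCGCGCGCGCgccgtgc
The first capital lay 30 bases before the start in Ndufa8 (chr2:36049351-36049376, - strand), 98 in Ndufs5 (chr4:123718267-123718292, - strand), 26 in Ndufa5 (chr6:24527699-24527724, - strand), 79 in Ndufb4 (chr16:37654430-37654455, - strand) and 17 in Ndufv2 (chr17:66101560-66101584, - strand). Ndufb4 had 3 matches, and the second match of Ndufv2 overlapped the first. The GABPA motif CCGGAAG was found in 3 member windows (9.68%, against 7.07% of all), those of Ndufb6, Ndufb7 and Ndufs3. The estrogen-related receptor motif TNAAGGTCA was found only in that of Ndufb4 among the 31 (3.23%, against 1.13%), the YY1 motif AANATGGCG only in that of Ndufb11 (3.23%, against 1.1%), the SP1 motif GGGCGG in 12 (38.7%, against 33%) and the E-box CACGTG in 2 (6.45%, against 6.04%). Median GC content was 57.6% in the member windows and 52% over all genes. A match is a run of letters and was not tested as a binding site.

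The deposited values were log2 RMA signals, which ran from 3.67 to 15.46, and the number of arrays limits their precision. Pairs of arrays correlated between 0.9927 and 0.9976 over genes, and none were identical. Array medians averaged 7.607 ± 0.017 at 5 days, 7.672 ± 0.020 at 42 days and 7.666 ± 0.019 on chow (SD, n = 4 each). Muscle fibre identity genes such as creatine kinase and skeletal actin averaged 14.02 at 5 days, 14.00 at 42 days and 14.00 on chow, with 0 of 8 past the test in any of the 3 comparisons. Of the members, 32 lay in the brightest 10% of genes by mean signal. Ndufb1 stood at 9.38 and Ndufb4 at 6.32, the 68.9th and 11.8th percentiles of genes. Probe set names mark possible cross-hybridisation for 4 members (Ndufa3, Ndufa12, Ndufs8 and Ndufv1) and a match to several transcripts for 3 (Ndufa2, Ndufa13 and Ndufc2). Signals of different probe sets depend on their probes, so levels of different subunits are not set against each other.

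Signals of complex I transcripts differed little between diets. After 5 days of HFD 1 of 34 members passed limma's test against chow (adjusted p under 0.05 over all genes), and it rose, against 3.8% of all genes called (1.6% higher and 2.2% lower). This was Ndufs1. After 42 days 2 of 34 passed, Ndufs1 and Ndufb5, and both rose, against 5.56% of all genes called (2.12% higher and 3.44% lower). In the comparison of 42 with 5 days 0 of 34 passed, against 8.52% of all genes called (2.75% higher and 5.77% lower). There 3 members were lower at an unadjusted limma p under 0.05 and 0 higher, against 31% of all genes in either direction and 17.2% lower. Both times are compared with the same chow arrays, so the 2 comparisons are not independent of each other. The array signal is an amount per unit of total RNA from whole muscle, in which fewer cells of a type and less RNA per cell cannot be told apart.

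**Figure D1:**
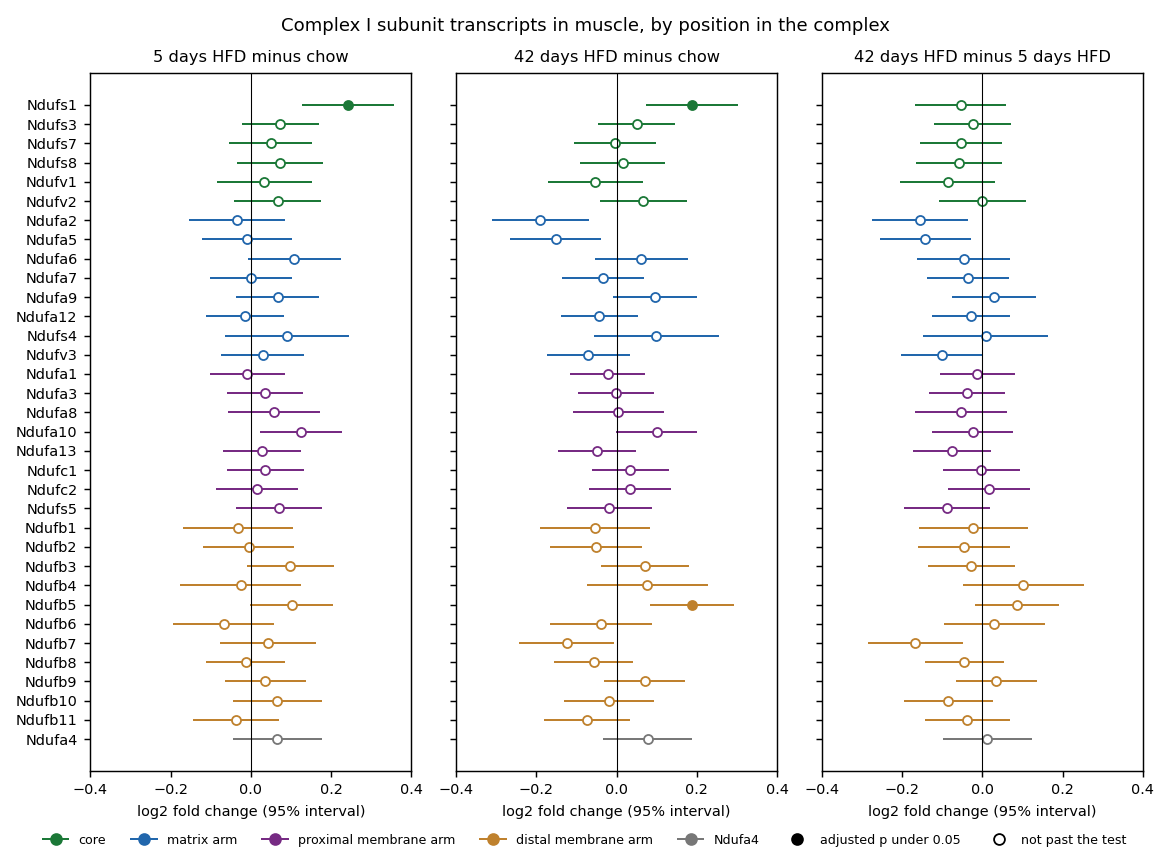
Log2 fold change of each of the 34 complex I subunits (rows, ordered by position in the complex) with its 95% interval from limma, for 5 days HFD minus chow, 42 days HFD minus chow and 42 minus 5 days HFD. Filled points passed an adjusted p under 0.05: Ndufs1 at both times against chow and Ndufb5 at 42 days, with all other points open and lying between -0.19 and 0.12.

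The size of the differences in signal can be bounded. The log2 fold change at 5 days ran over the members from -0.07 to 0.24 with a median of 0.036, and 24 of 34 were above 0 (median of all genes -0.01, 47% above 0). At 42 days against chow it ran from -0.19 to 0.19 with a median of -0.0031, and 16 of 34 were above 0 (all genes -0.013, 45.1% above 0). The median absolute difference of the members was 0.040 at 5 days and 0.055 at 42 days, and that of all genes 0.087 and 0.076. Standard errors of single members lay between 0.043 and 0.072. The widest limits of any member's 95% interval were -0.19 and 0.35 at 5 days and -0.31 and 0.30 at 42 days, so a 2-fold difference in signal lay outside these limits. The signal of Ndufb4 is dim, and its interval gives no limit for a change of its transcript. At the bright end members reached a mean of 14.47 (Ndufb9), where the highest value of any probe set was 15.46. Whether such bright signals follow the transcript in proportion was not tested. The values for all genes were not matched to the members by brightness. The interval lay wholly within a factor of 1.1 either way for 12 members at 5 days (5.72% of all genes) and for 11 at 42 days (6.6% of all genes). Bright genes as a whole had positive 5-day differences: the brightest 10% of genes, which holds 32 of the members, had a median of 0.051, with 73.4% above 0. At 42 days against chow these bright genes had a median of -0.036, with 37.3% above 0.

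The core subunits carry the redox centres, and 6 were analysed. Ndufs1, the largest core subunit, holds several of the iron-sulfur clusters through which electrons leave the flavin. It read 12.83, 12.98, 12.84 and 12.94 (log2 signal) after 5 days, 12.85, 12.79, 12.85 and 12.88 after 42 days, and 12.72, 12.68, 12.62 and 12.60 on chow. All 8 HFD arrays were above all 4 chow arrays. Its mean was 12.90 ± 0.076 at 5 days against 12.65 ± 0.055 on chow (SD, n = 4 each), a log2 fold change of 0.24 ± 0.052 (SE), or 18.3% higher with a 95% interval of 9.47% to 27.8% (limma adjusted p = 0.0343). At 42 days the mean was 12.84 ± 0.037, a log2 fold change of 0.19 ± 0.052 against chow (13.9% higher, interval 5.45% to 23.1%, limma adjusted p = 0.0490). The 42-day and 5-day arrays overlapped, with a difference of -0.05 ± 0.052 (limma adjusted p = 0.494). Ndufs1 has 1 probe set, so no other reading could be set beside it. The 5-day call was lost without chow replicate 3 (limma adjusted p = 0.0578), chow replicate 4 (0.0575), 5-day replicate 2 (0.105) or 5-day replicate 4 (0.0679). It was also lost after quantile normalization (adjusted p = 0.0602) or cyclic loess (0.0756), with array weights (0.0508) and in a fit of the 8 arrays compared (0.0796). The 42-day call was kept without chow replicate 1 (0.0414) or 5-day replicate 2 (0.0494) and lost without each of the other 10 arrays (up to 0.130, without chow replicate 3). With arrays centred on their medians it gave 0.0676, with unsuffixed probe sets preferred 0.0547, with the 8 arrays alone 0.0577 and with the replicate block 0.0743.

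The other 5 core subunits had positive differences at 5 days in the probe sets used, between 0.03 and 0.07, and none passed the test. Ndufs3, which belongs to the ubiquinone-binding part of the matrix arm, read 13.84, 13.88, 13.86 and 13.87 at 5 days, 13.83, 13.82, 13.83 and 13.86 at 42 days, and 13.83, 13.77, 13.81 and 13.74 on chow. The 5-day arrays lay just above the chow arrays (0.07 ± 0.044, limma adjusted p = 0.309), and the 42-day arrays overlapped them (0.05 ± 0.044, adjusted p = 0.553). Ndufv1, which binds NADH and flavin mononucleotide, differed by 0.03 ± 0.054 at 5 days and -0.05 ± 0.054 at 42 days (limma adjusted p = 0.729 and 0.623). Ndufv2, its iron-sulfur partner, differed by 0.07 ± 0.050 at both times in the probe set used (limma adjusted p = 0.423 and 0.479). Other bright probe sets of Ndufv2 gave -0.02 ± 0.052 and 0.01 ± 0.055 at 5 days. At 42 days they gave -0.09 ± 0.052 and -0.02 ± 0.055, with the opposite sign. Ndufs7 and Ndufs8 hold the last clusters before ubiquinone. Their differences were 0.05 and 0.07 at 5 days (limma adjusted p = 0.538 and 0.367) and -0.0043 and 0.015 at 42 days (0.976 and 0.901). In the probe sets used, the measured core subunits had 6 of 6 positive differences at 5 days with 1 past the test (median 0.070). At 42 days 4 of 6 were positive with 1 past it (median 0.032).

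Of the matrix arm accessory subunits 8 of 9 were measured, and 0 passed the test in any of the 3 comparisons. At 5 days 5 of the 8 differences were positive (median 0.015), and at 42 days 3 of the 8 (median -0.039). Ndufa2, a subunit of thioredoxin-like fold at the NADH-oxidising end, had the lowest 42-day difference of all members. It read 12.95, 12.93, 12.94 and 13.01 at 42 days, 13.12, 13.17, 13.06 and 13.10 at 5 days, and 13.15, 13.12, 13.28 and 13.04 on chow. The 4 arrays of 42 days lay below all 8 others. The difference at 42 days against chow was -0.19 ± 0.055, or -12.3% with an interval of -19.2% to -4.86% (limma adjusted p = 0.0585), short of the threshold. It passed when the dimmest 40% of genes were left out (limma adjusted p = 0.0317) and with a trended prior (0.0181). It also passed with the mean of each gene's probe sets (0.0473) and when every probe set was fitted (0.0461). Ndufa2 has 1 probe set, so its own values stayed the same in these fits. It fell short after quantile normalization (0.0667) or cyclic loess (0.0575) and with centred arrays (0.0658). The 8 arrays alone gave 0.0889 and the replicate block 0.088. Of 12 fits without 1 array it passed in 1, without chow replicate 4 (0.0440), and reached 0.164 without chow replicate 3. Its 5-day difference against chow was -0.03 ± 0.055 (limma adjusted p = 0.728).

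Ndufa5, an accessory subunit of the ubiquinone-binding part, had a like pattern in the probe set used. It read 12.85, 12.86, 12.87 and 12.88 at 42 days, 12.98, 12.99, 13.03 and 13.02 at 5 days, and 12.94, 13.04, 13.14 and 12.95 on chow. The 42-day arrays lay below the rest, by -0.15 ± 0.052 against chow (limma adjusted p = 0.0998), and the chow arrays spread widest. Its other probe set gave 0.02 ± 0.052 at 42 days, with the opposite sign. Ndufa6, which belongs to a family that anchors the mitochondrial acyl carrier protein, differed by 0.11 ± 0.054 at 5 days (limma adjusted p = 0.222) and 0.06 ± 0.054 at 42 days (adjusted p = 0.545). Ndufs4, whose loss causes Leigh syndrome in humans and a like disease in mice, differed by 0.09 ± 0.072 and 0.10 ± 0.072 (limma adjusted p = 0.453 and 0.462). Its arrays overlapped between all groups, with 12.29 to 12.55 at 5 days, 12.29 to 12.51 at 42 days and 12.21 to 12.44 on chow. Ndufa7, Ndufa9, Ndufa12 and Ndufv3 lay between -0.01 and 0.07 at 5 days and between -0.07 and 0.10 at 42 days.

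In the proximal membrane arm 8 of 9 accessory subunits were measured and 0 passed the test in any comparison. Their differences were positive for 7 of 8 at 5 days (median 0.036) and for 4 of 8 at 42 days (median 0.0014). Ndufa10, a subunit with a nucleoside kinase-like fold on the matrix side, read 13.14, 13.25, 13.14 and 13.17 at 5 days, 13.12, 13.17, 13.12 and 13.18 at 42 days, and 13.06, 13.05, 13.09 and 13.01 on chow. All 8 HFD arrays were above the 4 chow arrays, by 0.12 ± 0.047 at 5 days (limma adjusted p = 0.122) and 0.10 ± 0.047 at 42 days (adjusted p = 0.229). The 5-day difference passed only when arrays were centred on their medians (adjusted p = 0.0426). Its other probe set gave 0.13 ± 0.058 at 5 days and -0.13 ± 0.058 at 42 days, so the 2 readings have opposite signs at 42 days. Ndufc2, a small subunit that spans the membrane, differed by 0.02 ± 0.047 and 0.03 ± 0.047 (limma adjusted p = 0.860 and 0.737). Ndufa1, Ndufa3, Ndufa8, Ndufa13, Ndufc1 and Ndufs5 lay between -0.0093 and 0.07 at 5 days and between -0.05 and 0.03 at 42 days.

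All 11 accessory subunits of the distal membrane arm were measured, with 0 past the test at 5 days (5 of 11 differences positive, median -0.0055) and 1 at 42 days (4 of 11 positive, median -0.038). Ndufb5, a subunit with a single membrane helix, was the one that rose. It read 13.93, 13.95, 13.91 and 13.98 at 42 days, 13.81, 13.91, 13.84 and 13.87 at 5 days, and 13.82, 13.76, 13.74 and 13.69 on chow. The 42-day arrays were above all chow arrays, and the 5-day arrays lay between, overlapping both. Its mean was 13.94 ± 0.028 at 42 days against 13.75 ± 0.055 on chow (SD, n = 4 each), a log2 fold change of 0.19 ± 0.048, or 13.9% higher with an interval of 6.16% to 22.2% (limma adjusted p = 0.0344). At 5 days the difference was 0.10 ± 0.048 (adjusted p = 0.202). The gene's other probe set, of like brightness, gave 0.0078 ± 0.052 at 42 days and -0.0040 ± 0.052 at 5 days, and the mean of the 2 probe sets gave 0.098 at 42 days (limma adjusted p = 0.155). The call was also lost without any of chow replicates 2, 3 and 4 or any of the 4 arrays of 42 days (up to 0.0961), and kept without chow replicate 1 or any 5-day array. Centred arrays gave 0.0518, the 8 arrays alone 0.0547 and the replicate block 0.0542.

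Ndufb7, which lies on the intermembrane-space face, read 13.59, 13.62, 13.50 and 13.54 at 42 days, 13.69, 13.71, 13.79 and 13.72 at 5 days, and 13.65, 13.65, 13.82 and 13.62 on chow. The 42-day arrays were the lowest of the 3 groups, with -0.12 ± 0.055 against chow (limma adjusted p = 0.199); the highest 42-day array and the lowest chow array both round to 13.62. Its other probe set had the same sign at 42 days (-0.05 ± 0.068). Ndufb3, a small membrane subunit, had 12.93, 12.96, 12.94 and 12.91 at 5 days against 12.86, 12.84, 12.91 and 12.75 on chow. These 5-day arrays did not overlap the chow arrays, with the nearest of both at 12.91 to 2 decimals (0.10 ± 0.050, limma adjusted p = 0.236). Ndufb6 and Ndufb11, also single-helix subunits, had the lowest 5-day differences of all members in the probe sets used. These were -0.07 ± 0.058 and -0.04 ± 0.049 (limma adjusted p = 0.486 and 0.660). The other Ndufb6 probe set, of like brightness, gave 0.07 ± 0.050 at 5 days, with the opposite sign. Other probe sets of Ndufb11 gave 0.06 ± 0.049 and -0.01 ± 0.046. Ndufb9, which like Ndufa6 anchors an acyl carrier protein, differed by 0.04 and 0.07 (limma adjusted p = 0.653 and 0.408). Ndufb4, whose probe set is dim, differed by -0.03 ± 0.070 and 0.08 ± 0.070 (limma adjusted p = 0.850 and 0.571). Ndufb1, Ndufb2, Ndufb8 and Ndufb10 lay between -0.03 and 0.07 at 5 days and between -0.06 and -0.02 at 42 days. Ndufa4, named as a complex I subunit but since assigned to complex IV, differed by 0.07 ± 0.051 and 0.08 ± 0.051 (limma adjusted p = 0.438 and 0.404).

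**Figure D2:**
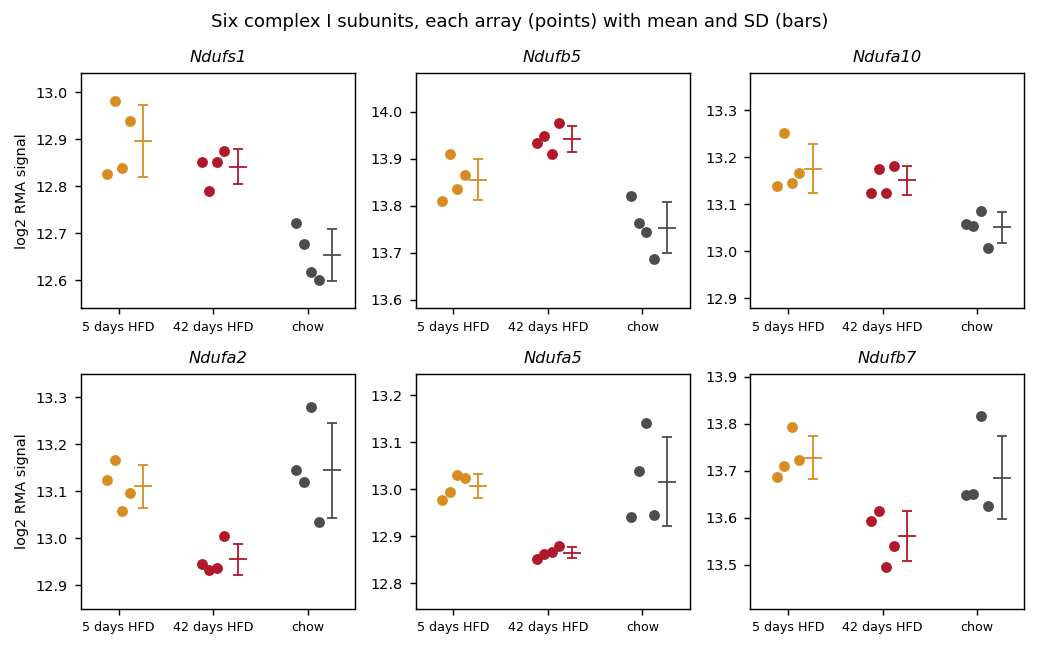
Log2 RMA signal of 6 complex I subunits in every array (points), with the group mean and SD (bars), for 5 days HFD, 42 days HFD and chow. The vertical axes do not start at 0. All 8 HFD arrays lie above the chow arrays for Ndufs1 and Ndufa10, and the 42-day arrays lie above them for Ndufb5 and below both other groups for Ndufa2, Ndufa5 and Ndufb7.

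Groups that do not overlap were about as frequent among the members as among all genes. At 5 days against chow 4 of 34 members had all 4 HFD arrays above all chow arrays (Ndufs1, Ndufs3, Ndufa10 and Ndufb3) and 0 below, against 11.8% of all genes in either direction (5.29% above and 6.47% below). At 42 days against chow 3 lay above (Ndufs1, Ndufb5 and Ndufa10) and 3 below (Ndufa2, Ndufa5 and Ndufb7), against 13.9% of all genes (5.19% above and 8.66% below).

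Set against 5 days, 26 of 34 members had negative differences at 42 days, and 0 passed the test. The median was -0.036, and the values ran from -0.17 to 0.10 (all genes: median 0.0078, 52% above 0). The brightest 10% of genes had a median of -0.083 with 19.8% above 0. All 6 core subunits were on the negative side (median -0.054), as were 6 of 8 in the matrix arm (-0.041), 7 of 8 in the proximal (-0.031) and 7 of 11 in the distal membrane arm (-0.028). In 8 members the 42-day arrays all lay below the 5-day arrays and in 0 above, against 20.4% of all genes in either direction (7.17% above and 13.3% below). These were Ndufs8, Ndufv1, Ndufa2, Ndufa5, Ndufv3, Ndufa13, Ndufb7 and Ndufb8. The lowest difference was that of Ndufb7, at -0.17 ± 0.055 (limma adjusted p = 0.0657), followed by Ndufa2 at -0.16 ± 0.055 (0.0810) and Ndufa5 at -0.14 ± 0.052 (0.0872). Ndufb7 and Ndufa2 passed without chow replicate 3 (0.0399 and 0.0497), an array that enters this comparison only through the shared estimate of spread. The interval lay within a factor of 1.1 for 13 members (4.68% of all genes). This comparison shares its arrays with both of the others.

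Taking all members of an array together, the mean signal was 13.28 ± 0.016 at 5 days, 13.24 ± 0.022 at 42 days and 13.24 ± 0.048 on chow (SD, n = 4 each). The chow arrays spread from 13.18 to 13.29 and so covered nearly all HFD arrays, which ran from 13.26 to 13.30 at 5 days and from 13.22 to 13.27 at 42 days. Chow replicate 4 had the lowest value of the 12 arrays in 17 of 34 members, and chow replicate 3 had the highest in 12 of 34. By position, the core mean lay 0.058 to 0.134 above the chow mean in the 5-day arrays and 0.031 to 0.072 above it in the 42-day arrays, while the chow arrays themselves ran from -0.071 to 0.047 around it. The 42-day and chow arrays overlapped. The core mean includes Ndufs1, the only core subunit past the test. Taken singly, Ndufs7, Ndufs8, Ndufv1 and Ndufv2 overlapped between the 5-day and chow arrays. The matrix arm mean ran from -0.058 to 0.006 at 42 days and from 0.008 to 0.048 at 5 days, inside the chow range of -0.072 to 0.078. In the proximal arm the values were 0.022 to 0.065 at 5 days, -0.009 to 0.028 at 42 days and -0.035 to 0.035 on chow. In the distal arm they were -0.006 to 0.034 at 5 days, -0.036 to 0.031 at 42 days and -0.059 to 0.066 on chow.

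**Figure D3:**
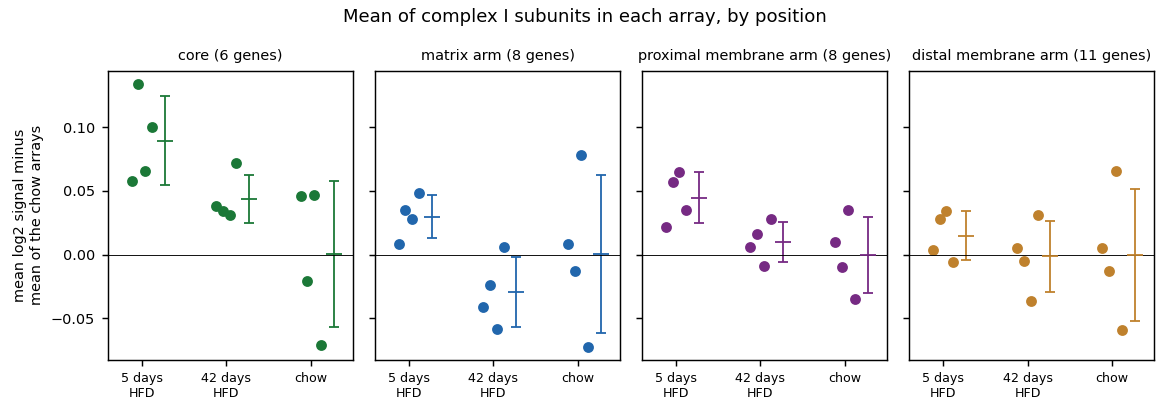
Mean log2 signal of the measured subunits of each position in each array, minus the mean of the chow arrays (points), with group mean and SD (bars), for 5 days HFD, 42 days HFD and chow. Chow arrays spread as widely as the groups differ in the matrix arm and in both parts of the membrane arm. For the core all 5-day arrays lie above the chow arrays, in a mean that includes Ndufs1. Taken singly, Ndufs7, Ndufs8, Ndufv1 and Ndufv2 overlap between these groups.

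The size of the small common shift depended on how the arrays were scaled, and so did its sign in both comparisons that involve 42 days. At 5 days the members' median was 0.036 as deposited (24 of 34 positive), 0.026 after quantile normalization (23 of 34), 0.0047 after cyclic loess (19 of 34) and 0.095 with arrays centred on their medians (33 of 34). At 42 days against chow it was -0.0031, 0.0021, 0.018 and -0.0091 in the same order, with 16, 18, 20 and 15 of 34 positive. For 42 against 5 days it was -0.036 as deposited and -0.012 after quantile normalization (8 and 14 of 34 positive), turned to 0.026 after cyclic loess (26 of 34 positive), and was -0.10 with centred arrays (2 of 34 positive). The called genes of the whole table moved too: 42.1% of 5-day calls were higher as deposited, 50.7% after loess and 84.3% with centring. For 42 against 5 days these shares were 32.3%, 44.4% and 7.45%. Ndufs1 kept its direction against chow at both times, and Ndufb5 at 42 days, under all 4 scalings.

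**Figure D4:**
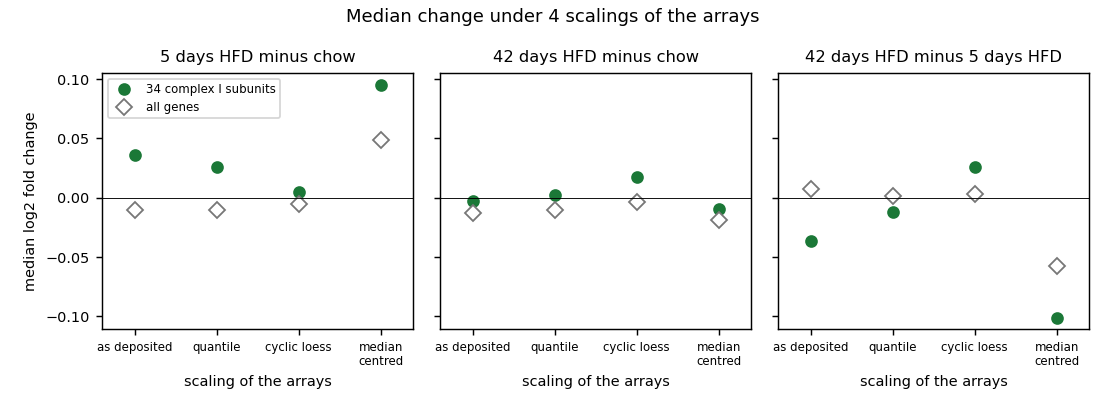
Median log2 fold change of the 34 complex I subunits (circles) and of all genes tested (diamonds) under 4 scalings of the arrays, in 3 comparisons. The members' median between 42 and 5 days HFD is -0.036 as deposited and 0.026 after cyclic loess.

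Other probe sets of the same genes gave a mixed check. They exist for 19 of the 34 members, 38 in all, and were tested in a fit of all 34945 probe sets. Their sign matched that of the probe set used in 25 of 38 at 5 days, 18 of 38 at 42 days and 24 of 38 between 42 and 5 days. At 5 days 0 rose and 1 fell (3.59% of all probe sets called), a dim probe set of Ndufc2 with a mean signal of 6.68 (-0.28 ± 0.061, limma adjusted p = 0.0320). Its brighter probe sets had differences of 0.02, 0.06 and 0.14. At 42 days against chow 0 rose and 1 fell (10.6% of all called), a probe set of Ndufs4 whose name marks possible cross-hybridisation (-0.33 ± 0.077, limma adjusted p = 0.0131). Another 2 Ndufs4 probe sets were also on the negative side at 42 days (-0.11 ± 0.080 and -0.08 ± 0.13, limma adjusted p = 0.454 and 0.763), and the brightest, which stood for the gene, gave 0.10. At 42 against 5 days (7.8% of all called) the dimmer probe set of Ndufa10 fell (-0.26 ± 0.058, limma adjusted p = 0.0227) and a dim one of Ndufb9 rose (0.23 ± 0.067, adjusted p = 0.0487). For Ndufs8, with 6 probe sets, all 6 differences at 5 days were positive, from 0.03 to 0.19, and 0 passed the test.

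**Figure D5:**
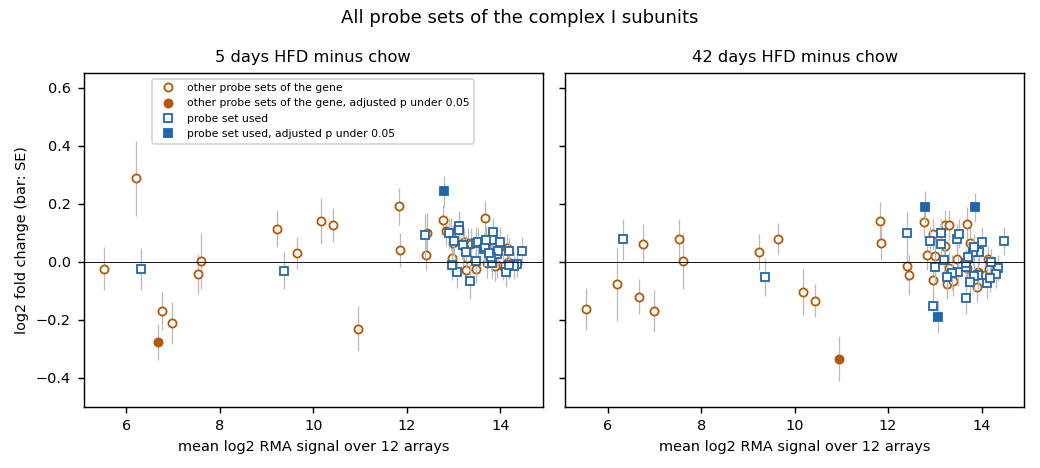
Log2 fold change against chow (vertical axis, bars are SE) of all 72 probe sets of the 34 complex I subunits by their mean log2 signal over 12 arrays, at 5 days HFD and 42 days HFD. Filled symbols passed an adjusted p under 0.05 in the fit of all probe sets, where Ndufa2 joins Ndufs1 and Ndufb5 at 42 days, and other probe sets of a gene (circles) scatter more widely at low signal.

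Genes around complex I were read from lists drawn up with results of these data known. Of all genes, 1.6% passed higher and 2.2% lower at 5 days, and 2.12% and 3.44% at 42 days. Between 42 and 5 days 2.75% passed higher and 5.77% lower. Ndufab1, the acyl carrier protein that is part of the complex, differed by 0.10 ± 0.046 at 5 days and 0.12 ± 0.046 at 42 days (limma adjusted p = 0.190 and 0.131). Of the assembly factors 16 of 17 were measured, and at 5 days 3 of 16 rose and 0 fell (median 0.083, 12 of 16 positive). These were Ndufaf1, which acts early in building the membrane arm (0.32 ± 0.052, limma adjusted p = 0.0184), Tmem126b of the same assembly complex (0.24 ± 0.061, 0.0459) and Aifm1, a mitochondrial flavoprotein needed for complex I biogenesis (0.23 ± 0.051, 0.0349). At 42 days 1 of 16 rose, again Ndufaf1 (0.19 ± 0.052, 0.0453), and the median was -0.0028. Set against 5 days, all 16 differences at 42 days were negative with a median of -0.095, and 1 fell, Ndufaf4 (-0.24 ± 0.067, 0.0435). Bright genes in general were on this side: 11 of the 16 lay among the brightest 3 of 10 bins of genes by signal, and those bins had medians of -0.11, -0.12 and -0.083 with 19.5%, 14.2% and 19.8% above 0. After quantile normalization 11 of 16 assembly factors were negative (median -0.024) and after cyclic loess 11 of 16 (median -0.020), with 0 past the test in either. At 5 days 1 of 16 rose after either scaling, against 3 as deposited. The 5-day median of the list was 0.028 after quantile normalization and 0.037 after cyclic loess. Bright genes in general were positive at 5 days: the same 3 bins had medians of 0.055, 0.080 and 0.051. In these bins 70.6%, 78.6% and 73.4% of genes were above 0.

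Among 40 of 41 listed subunits of complexes II to V, 33 had positive differences at 5 days and 26 at 42 days (medians 0.041 and 0.023). Cox6a1, the non-muscle form of a cytochrome c oxidase subunit, fell at both times (-0.53 ± 0.14 and -0.50 ± 0.14, limma adjusted p = 0.0489 and 0.0487), and Cox7c fell at 42 days (-0.30 ± 0.063, 0.0176). None of the 40 passed between 42 and 5 days, where the median was -0.013 and turned to 0.0073 after quantile normalization and 0.048 after cyclic loess. At 5 days 0 of the 40 passed after either scaling. Of the 40, 39 lay in the brightest 10% of genes. There 73.4% of differences against chow were above 0 at 5 days and 37.3% at 42 days. Of 11 regulators of respiratory chain genes 0 passed at 5 days, with 10 positive differences and a median of 0.11. That median was 0.025 after quantile normalization (9 of 11 positive) and 0.036 after cyclic loess (10 of 11 positive). The coactivator Ppargc1a differed by 0.21 ± 0.098 at 5 days (limma adjusted p = 0.208) and by -0.23 ± 0.098 at 42 days (0.183). It fell at 42 days against 5 days (-0.44 ± 0.098, 0.0232), as did its relative Pprc1 (-0.32 ± 0.071, 0.0226), while 0 of 11 passed in this comparison after quantile normalization or cyclic loess. Gabpb1, the partner of GABPA, rose at 42 days against chow (0.27 ± 0.069, 0.0347). Nrf1 itself differed by -0.02 ± 0.061 and -0.08 ± 0.061 (limma adjusted p = 0.876 and 0.514).

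Markers of other cells and of RNA quality also differed between the groups. Slow fibre genes, which mark oxidative fibres, had 10 of 10 positive differences at both times with 0 past the test. Their array mean was 12.08 ± 0.13 at 5 days, 12.06 ± 0.048 at 42 days and 11.81 ± 0.30 on chow (log2 signal, SD, n = 4 each), and fast fibre genes averaged 15.12 at 5 days, 15.13 at 42 days and 15.13 on chow. Array means of the adipocyte markers (10 of 12 measured) ran from 9.28 to 9.68 at 5 days, 9.14 to 9.97 at 42 days and 9.75 to 10.7 on chow, and of these Retn and Cidec fell at 5 days. Those of the brown adipocyte markers (8 of 8) ran from 6.73 to 6.86 at 5 days, 6.78 to 7.32 at 42 days and 6.78 to 7.53 on chow. Cidea fell at 5 days, but the 8 did not move together. Against chow 2 of 8 were positive at 5 days (median -0.098) and 5 of 8 at 42 days (median 0.1). Between 42 and 5 days all 8 were positive, and 1 passed the test. Of all genes, 2.2% were called lower at 5 days and 2.12% higher at 42 days, both against chow. Of the liver transcripts 7 of 9 rose at 42 days against chow, with array means of 7.74 to 9.04 at 5 days, 8.72 to 9.92 at 42 days and 7.94 to 8.28 on chow. Of the tendon transcripts 6 of 8 rose at 42 days, with array means of 8.66 to 9.21 at 5 days, 9.16 to 9.53 at 42 days and 8.64 to 8.87 on chow. The difference between 3-prime and 5-prime probe sets of 4 control transcripts was 1.02 ± 0.075 at 5 days, 0.892 ± 0.078 at 42 days and 1.07 ± 0.063 on chow (log2, SD, n = 4 each). The part of these differences in the values of the complex I subunits was not tested.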

How the data were processed

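Skeletal muscle RNA of 12 mouse samples (4 each for 5 days HFD, 42 days HFD and chow) was measured on Affymetrix arrays. The deposited values are log2 signals per probe set, made by the authors with RMA per the submitters' processing notes; version and software are not given in the sources used here, and values from 3.67 to 15.46 fit a log2 scale. Among the 45098 probe sets, 34945 had a single gene symbol and were used; 61 controls, 932 with several symbols and the rest with none were left out. For 9010 of 18193 genes with more than 1 probe set, the brightest on average was kept. No filter was set on dim genes.

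All 12 arrays entered 1 model of 3 group means in limma 3.58.1 (R 4.3.3), with a constant eBayes prior (9 residual and 5.88 prior degrees of freedom). The 3 contrasts were tested two-sided, with Benjamini-Hochberg adjustment over all genes and a threshold of 0.05. A log2 fold change is given ± SE and a group mean ± SD, and intervals are 95%. Promoter windows came from RefSeq (GRCm38.p6). The procedure was tested on simulated data.

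Members, lists and the rule for named genes were chosen with earlier results of these data known. Named with values were members past the test, the 3 highest and 3 lowest of each contrast, core subunits and members whose probe sets disagree in sign with either past the test; other members were added after their values were seen. The main model did not pair arrays by replicate number. After group means were removed, 3 of 12 same-number pairs correlated over 0.1, those of replicate 1 (0.208, 0.215 and 0.221). Pairs of the other numbers ran from -0.176 to 0.099. Whether the replicate 1 arrays share a factor was not tested. Alternatives are in the closing section.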

Additional observations from a re-analysis of the deposited data

Results flagged for a closer look

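Among 102 groups of 4 arrays (34 members in 3 groups), 8 held 1 array far from the other 3, by a gap that exceeded Dixon's 95% critical value. Chance gives this in about 1 in 20 groups. All values are log2 signals. In the 42-day group, Ndufa2 read 13.01 in replicate 4 against 12.93 to 12.95 in the others, Ndufa9 read 13.51 in replicate 2 against 13.58 to 13.59, and Ndufb3 read 12.99 in replicate 4 against 12.87 to 12.89. In the 5-day group, Ndufb1 read 9.41 in replicate 3 against 9.36 in the others, and Ndufs5 read 12.99 in replicate 1 against 13.08 to 13.09. On chow, Ndufb6 read 13.33 in replicate 1 against 13.41 to 13.42, Ndufb7 read 13.82 in replicate 3 against 13.62 to 13.65, and Ndufs5 read 12.93 in replicate 4 against 13.01 to 13.02. None of the 8 belongs to Ndufs1 or Ndufb5, the members past the test.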

How the results depend on the processing

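The number of complex I subunits past the test was small under every setting tried. At 5 days against chow (1 as reported) it was 0 after quantile normalization, cyclic loess, with array weights or in a fit of the 8 arrays compared, 2 with arrays centred on their medians or with the most variable probe set of each gene, and 0 to 1 without 1 array. At 42 days against chow (2) it was 0 with centred arrays, in the fit of 8 arrays and with the replicate block, 1 where probe sets without a name suffix were preferred, 4 with a trended and robust prior or at an adjusted p under 0.1, and 0 to 2 without 1 array. Between 42 and 5 days (0) it was 4 with centred arrays, 3 with the trended prior or at an adjusted p under 0.1, 1 with the dimmest 40% of genes left out, the most variable probe set or array weights, and 0 to 2 without 1 array.

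Counts over all genes moved more. At 5 days (692) they were 208 after quantile normalization, 207 after loess, 1353 with centring, 159 with weights, 7 in the fit of 8 arrays, 2073 at an adjusted p under 0.1, and 6 to 790 without 1 array (6 without 5-day replicate 2). At 42 days (1011) they were 2536 with the most variable probe set, 1872 at an adjusted p under 0.1, and 228 to 1079 without 1 array (228 without chow replicate 3). Between 42 and 5 days (1550) they were 371 after quantile normalization, 363 after loess, 3465 with centring, 529 with the mean of the probe sets, 3682 at an adjusted p under 0.1, and 0 to 1972 without 1 array (0 without 42-day replicate 1).

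The members' median log2 fold change was 0.0951 at 5 days with centring, 0.0401 at 42 days where probe sets without a suffix were preferred, and 0.026 and -0.101 between 42 and 5 days after loess and with centring. Without 1 array it ran from 0.0234 to 0.0569, from -0.0229 to 0.0112 and from -0.05 to -0.0268 in the 3 comparisons. Ndufc2 turned to -0.278 at 5 days with its most variable probe set (adjusted p = 0.0339), a dim one. Ndufs1 passed in 8 of 12 fits without 1 array at 5 days and in 2 of 12 at 42 days, and Ndufb5 in 5 of 12 at 42 days. Of the 12 arrays, 4 had their closest match in the other groups within their own number, and pairs of replicate 1 correlated over 0.1. With the replicate block Ndufs1 gave adjusted p = 0.0378 at 5 days and 0.0743 at 42 days, and Ndufb5 0.0542 at 42 days. The fit of every probe set, and the scalings of the lists outside complex I, were added after seeing the data. The cause of these shifts was not tested. The probe set of Ndufb4 is among the dimmest, at the 11.8th percentile of genes.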
